A study of Bos taurus with 29 samples.

Results

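The insulin-like growth factor (IGF) system was followed in bovine corpus luteum, the ovarian gland that forms after ovulation and secretes progesterone. It was taken as 10 genes chosen by name: the ligands IGF1 and IGF2, the receptors IGF1R and IGF2R, and the binding proteins IGFBP2, IGFBP3, IGFBP4, IGFBP5, IGFBP6 and IGFBP7. All 10 were among the 19112 genes of the corpus luteum count table, and all 10 were among the 18939 genes with enough counts to be tested. The study asked how an early embryo, the endometrium and the corpus luteum communicate. Slaughterhouse tissue was used, and explants of endometrium were cultured alone or with a single embryo of day 7.

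The corpus luteum libraries fell into 4 groups of 3. CL-CM-EE-IVF goes with explants cultured with an embryo produced in vitro, CL-CM-EE-AI with explants cultured with an embryo produced in vivo, and CL-CM-EE with explants that had no embryo. CL-NC served here as control, and the letters CM are taken to stand for explant-conditioned medium, neither of which the labels spell out. Within a group the 3 libraries are numbered R2, R4 and R5. The sources used here give neither the meaning of these numbers, nor the time in culture, nor whether the libraries came from separate animals, so p-values measure only the spread between these libraries, which may in part be technical. Each R2 library has 1 sample title where each R4 and R5 library has 2, and no label says whether R2 was sequenced in a run of its own.

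IGF1 and IGF2 are secreted peptides that promote cell survival, growth and, in the ovary, steroid production. Both signal through IGF1R, a receptor tyrosine kinase that recruits insulin receptor substrates and the PI3K and AKT pathway, whereas IGF2R binds IGF2 and carries it to lysosomes for breakdown. The binding proteins hold the ligands outside the cell, lengthen their life and limit or deliver them to the receptor, and proteases such as PAPPA cut some of them and free the ligand.

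The 12 libraries held between 16536797 and 25747637 counts, of which mitochondrial and ribosomal RNA took between 47.0% and 67.4%. That share lay between 52.3% and 58.3% in the R2 libraries, between 47.0% and 50.9% in R4, and between 56.9% and 67.4% in R5. Levels are TMM-scaled CPM, counts scaled to a common library total, and they are compared between libraries and not between genes, since gene lengths were not used. Markers of steroidogenic luteal cells were present in every library, all 9 of 9 listed genes, with summed levels between 1441 and 6491 CPM. STAR, CYP11A1 and HSD3B1, which take cholesterol to progesterone, averaged 294, 405 and 913 CPM over the 12 libraries. Of 8 listed uterine epithelial markers 6 were in the table. EPCAM had 0 counts in 4 libraries, MUC1 in 3, KRT7 and OVGP1 in 1 each, and FOXA2 and CDH1 in 0. CDH1 averaged 7.25 CPM over the 12 libraries, and the other 5 averaged between 0.201 CPM for EPCAM and 0.791 CPM for FOXA2.

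None of the 10 genes passed the test between culture groups. The edgeR quasi-likelihood test over all 4 groups called 0 of 10 members at an adjusted p under 0.05, against a background of 0% of all genes tested. It gave 0 of 10 members and 172 of all genes (0.908%) at an unadjusted p under 0.05. R number was not in this model, so the spread between R numbers counted as spread within groups. With R number in the model the edgeR test over all 4 groups gave 0 members and 527 of all genes at an unadjusted p under 0.05. It again called 0 members and 0 genes at an adjusted p under 0.05. The 6 comparisons between pairs of groups also called 0 members each, with 0% of all genes called in each. DESeq2 also called 0 members in each. All 60 of the 95% intervals, 10 genes in 6 comparisons without R number in the model, included 0.

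**Figure D1:**
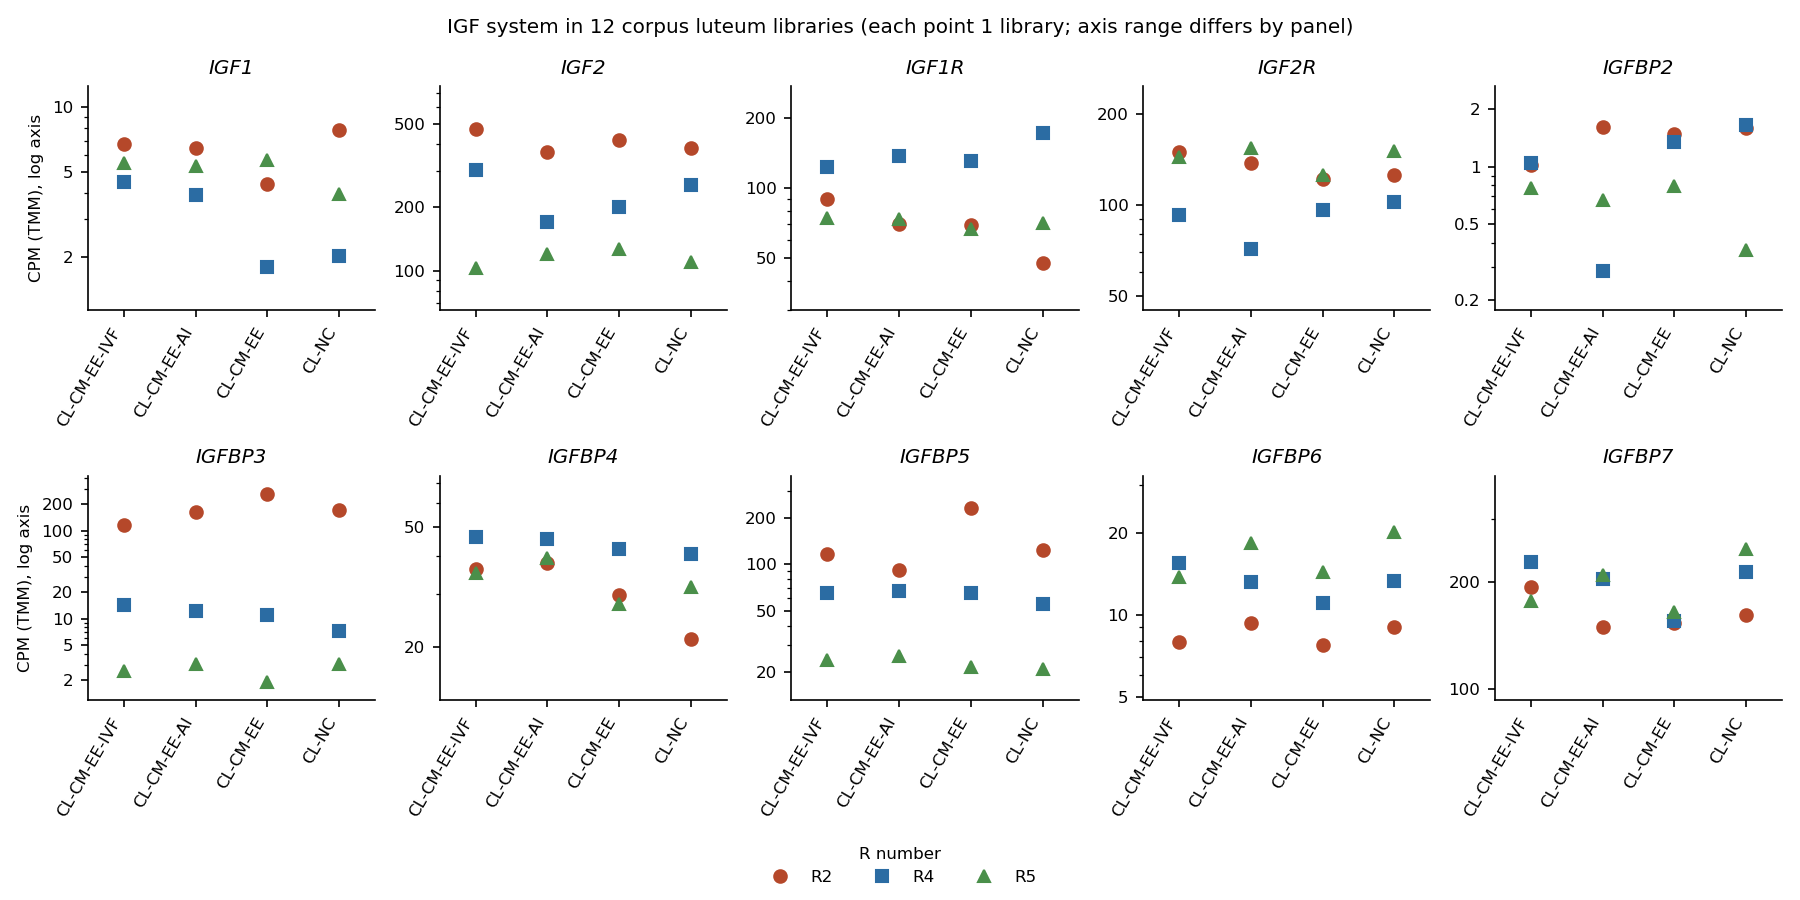
CPM of each of the 10 genes in the 12 libraries, on a log axis, by culture group on the x axis and R number by marker. IGF2, IGFBP3 and IGFBP5 have R2 highest, then R4, then R5 in all 4 groups, and IGFBP3 spans 1.89 to 261 CPM.

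R number, tested with the culture group also in the model, did separate the libraries. The test called 7 of 10 members at an adjusted p under 0.05, against 26.7% of all genes tested: IGF1, IGF2, IGF1R, IGF2R, IGFBP3, IGFBP5 and IGFBP6. IGFBP3 had the lowest p of the 10 and rank 2 among all genes. IGFBP2, IGFBP4 and IGFBP7 did not pass, with adjusted p of 0.315, 0.0563 and 0.331. The 3 pairs of R numbers were then compared, a choice made after R number had stood out. The tissue is a mixture of cells, so fewer cells of a type and less RNA per cell cannot be told apart in any of these levels. The number of genes called for R number over the whole table was 5063, and it was 3374 without the CL-CM-EE-AI R5 library.

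Among the ligands, IGF2, the fetal-type growth factor, showed the R pattern most clearly. In the R2 libraries IGF2 stood at 475 CPM in CL-CM-EE-IVF, 367 CPM in CL-CM-EE-AI, 419 CPM in CL-CM-EE, against 383 CPM in CL-NC. In the R4 libraries it stood at 301, 170.0, 200.6 and 255 CPM in the same groups in that order. In the R5 libraries it stood at 103, 120.3, 126 and 110.1 CPM. Every R2 library lay above every R4 library, and every R4 library above every R5 library. IGF2 was 1.79-fold higher in R2 than in R4 (log2 fold change 0.84, 95% interval 0.45 to 1.23, edgeR adjusted p = 0.00905). It was 3.53-fold higher in R2 than in R5 (log2 1.82, 1.42 to 2.22, edgeR adjusted p = 4.77e-05) and 1.97-fold higher in R4 than in R5 (edgeR adjusted p = 0.00442). Without the CL-CM-EE R4 library the first of these missed the threshold, with a log2 fold change of 0.75 and an edgeR adjusted p of 0.0552. Averaged by culture group, IGF2 stood at 293 ± 186 CPM in CL-CM-EE-IVF, 219 ± 130 CPM in CL-CM-EE-AI, 248 ± 152 CPM in CL-CM-EE, against 249 ± 136 CPM in CL-NC (SD, n = 3 each). IGF2 had the lowest p of the 10 genes between the embryo groups, 0.42 higher on the log2 scale in CL-CM-EE-IVF than in CL-CM-EE-AI (95% interval -0.96 to 1.80). That difference turned to -0.11 without the CL-CM-EE-IVF R2 library and to 1.10 without the CL-CM-EE-AI R2 library. It was 0.83 without CL-CM-EE-IVF R5, 0.27 without CL-CM-EE-AI R4 and 0.13 without CL-CM-EE-AI R5.

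IGF1, the main growth-hormone-dependent ligand, had low counts, between 32 and 159 a library. Its R2 libraries stood at 6.75, 6.46, 4.38 and 7.87 CPM in CL-CM-EE-IVF, CL-CM-EE-AI, CL-CM-EE and CL-NC. Its R4 libraries stood at 4.48, 3.91, 1.80 and 2.02 CPM in that order, and its R5 libraries at 5.48, 5.30, 5.67 and 3.92 CPM. The R4 library was the lowest within each of the 4 groups, but the sets overlapped, since CL-CM-EE R2 lay below CL-CM-EE-IVF R4. The fit gave IGF1 2.17-fold higher in R2 than in R4 (log2 1.12, 95% interval 0.46 to 1.79, edgeR adjusted p = 0.0299). For R2 against R5 the log2 difference was 0.31 (-0.34 to 0.96) and for R4 against R5 it was -0.81 (-1.48 to -0.15, edgeR adjusted p = 0.0987). IGF1 was the least secure of the 7 calls for R number, at an edgeR adjusted p of 0.0402. Its adjusted p was 0.138 without CL-CM-EE R4, 0.124 without CL-NC R4, 0.0702 without CL-CM-EE-AI R5, 0.0692 without CL-NC R2, 0.0615 without CL-CM-EE-IVF R5, 0.0596 without CL-CM-EE-IVF R2 and 0.0516 without CL-CM-EE-AI R2. For R2 against R4 it was 0.113 without CL-CM-EE R4, 0.0913 without CL-NC R4 and 0.0739 without CL-NC R2. By culture group IGF1 averaged 5.57 ± 1.14 CPM in CL-CM-EE-IVF, 5.22 ± 1.28 CPM in CL-CM-EE-AI, 3.95 ± 1.97 CPM in CL-CM-EE, against 4.61 ± 2.98 CPM in CL-NC (SD, n = 3 each).

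The signalling receptor IGF1R was high in R4 alone. Its R4 libraries stood at 124, 138, 132 and 172 CPM in CL-CM-EE-IVF, CL-CM-EE-AI, CL-CM-EE and CL-NC. Its R2 libraries stood at 89.6, 70.3, 69.8 and 47.7 CPM, and its R5 libraries at 74.6, 73.8, 67.1 and 71.3 CPM. All 4 R4 libraries lay above all 8 others, and R2 and R5 overlapped. IGF1R was lower in R2 than in R4 by 1.04 on the log2 scale (95% interval -1.47 to -0.62, edgeR adjusted p = 0.00393). It was 1.98-fold higher in R4 than in R5 (log2 0.99, 0.57 to 1.41, edgeR adjusted p = 0.00593), and R2 against R5 gave -0.06 (-0.47 to 0.36). By culture group IGF1R averaged 96.1 ± 25.4, 94.0 ± 38.1 and 89.5 ± 36.5 CPM in CL-CM-EE-IVF, CL-CM-EE-AI and the CL-CM-EE group, against 97.0 ± 66.1 CPM in CL-NC (SD, n = 3 each).

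IGF2R, which clears IGF2, had the opposite order, with R4 low. Its R2 libraries stood at 149, 137.5, 122 and 125 CPM in CL-CM-EE-IVF, CL-CM-EE-AI, CL-CM-EE and CL-NC. Its R4 libraries stood at 92.5, 71.7, 96.6 and 102 CPM, and its R5 libraries at 144, 155, 126 and 151 CPM. No R4 library reached any R2 or R5 library. IGF2R was 1.47-fold higher in R2 than in R4 (log2 0.56, 95% interval 0.22 to 0.90, edgeR adjusted p = 0.0348) and lower in R4 than in R5 by 0.67 on the log2 scale (-1.01 to -0.32, edgeR adjusted p = 0.0154). For R2 against R5 the log2 difference was -0.11 (-0.45 to 0.23). The test of R number gave an edgeR adjusted p of 0.0164 for IGF2R, with 0.0558 without CL-CM-EE-AI R4 and 0.0584 without CL-CM-EE-IVF R4. For R2 against R4 its adjusted p was 0.102 without CL-CM-EE-IVF R2, 0.0992 without CL-CM-EE-AI R4, 0.0972 without CL-CM-EE-IVF R4, 0.0593 without CL-CM-EE-IVF R5 and 0.0584 without CL-CM-EE R4. For R4 against R5 it was 0.0808 without CL-CM-EE-AI R5, with 0.0530 without CL-CM-EE-AI R4. By culture group IGF2R averaged 129 ± 31.3, 121 ± 43.8 and 115 ± 15.97 CPM in CL-CM-EE-IVF, CL-CM-EE-AI and the CL-CM-EE group, against 126 ± 24.4 CPM in CL-NC (SD, n = 3 each).

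IGFBP3, the main carrier of IGFs in blood, had the widest range of the 10, 138-fold between its lowest and its highest library. Its R2 libraries stood at 115 CPM in CL-CM-EE-IVF, 161 CPM in CL-CM-EE-AI, 261 CPM in CL-CM-EE, against 173 CPM in CL-NC. Its R4 libraries stood at 14.5, 12.3, 10.9 and 7.22 CPM in the same order of groups, and its R5 libraries at 2.53, 3.05, 1.89 and 3.09 CPM. The 3 sets did not overlap, and, as ratios, the gaps between them exceeded every difference between culture groups of 1 R number. IGFBP3 was 15.6-fold higher in R2 than in R4 (log2 3.97, 95% interval 3.31 to 4.63, edgeR adjusted p = 1.67e-05). It was 66.2-fold higher in R2 than in R5 (log2 6.05, 5.32 to 6.79, edgeR adjusted p = 2.49e-06) and 4.23-fold higher in R4 than in R5 (log2 2.08, 1.43 to 2.73, edgeR adjusted p = 0.00108). The culture groups averaged 43.9 ± 61.6, 58.7 ± 88.5 and 91.2 ± 147 CPM in CL-CM-EE-IVF, CL-CM-EE-AI and the CL-CM-EE group, against 61.2 ± 97.1 CPM in CL-NC (SD, n = 3 each), so each SD exceeded its mean. The interval of the log2 fold change for CL-CM-EE against CL-NC was -3.45 to 4.602 without R number in the model.

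IGFBP5, a binding protein that also attaches to extracellular matrix, followed the same order at a smaller range. Its R2 libraries stood at 116, 91.9, 233 and 123 CPM in CL-CM-EE-IVF, CL-CM-EE-AI, CL-CM-EE and CL-NC. Its R4 libraries stood at 65.0, 67.5, 65.1 and 55.5 CPM, and its R5 libraries at 24.0, 25.3, 21.5 and 21.0 CPM. The 3 sets did not overlap, and CL-CM-EE R2 was the highest library for IGFBP5 and for IGFBP3 alike. IGFBP5 was 2.15-fold higher in R2 than in R4 (log2 1.10, 95% interval 0.61 to 1.59, edgeR adjusted p = 0.00679). It was 5.89-fold higher in R2 than in R5 (log2 2.56, 2.04 to 3.07, edgeR adjusted p = 2.74e-05) and 2.74-fold higher in R4 than in R5 (log2 1.46, 0.96 to 1.95, edgeR adjusted p = 0.00172). The culture groups averaged 68.3 ± 46.1, 61.6 ± 33.7 and 106 ± 112 CPM in CL-CM-EE-IVF, CL-CM-EE-AI and the CL-CM-EE group, against 66.4 ± 51.8 CPM in CL-NC (SD, n = 3 each).

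IGFBP6, which prefers IGF2 over IGF1, went the other way from IGF2 across R numbers. Its R2 libraries stood at 7.94, 9.38, 7.77 and 9.03 CPM in CL-CM-EE-IVF, CL-CM-EE-AI, CL-CM-EE and CL-NC. Its R4 libraries stood at 15.5, 13.2, 11.1 and 13.3 CPM, and its R5 libraries at 13.8, 18.4, 14.3 and 20.2 CPM. All R2 libraries lay below all others, while R4 and R5 overlapped. IGFBP6 was lower in R2 than in R5 by 0.96 on the log2 scale (95% interval -1.35 to -0.57, edgeR adjusted p = 0.00248). It was lower in R2 than in R4 by 0.64 (-1.03 to -0.25, edgeR adjusted p = 0.0323). With RLE scaling that second difference was -0.56 with an edgeR adjusted p of 0.0657, and it also missed the threshold without any of 9 of the 12 libraries, at adjusted p between 0.0537 and 0.148. Those libraries were R2 of every group, R5 of the groups CL-CM-EE-AI, CL-CM-EE and CL-NC, and R4 of CL-CM-EE-IVF and CL-CM-EE. By culture group IGFBP6 averaged 12.4 ± 3.95, 13.7 ± 4.54 and 11.1 ± 3.28 CPM in CL-CM-EE-IVF, CL-CM-EE-AI and the CL-CM-EE group, against 14.2 ± 5.65 CPM in CL-NC (SD, n = 3 each).

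**Figure D2:**
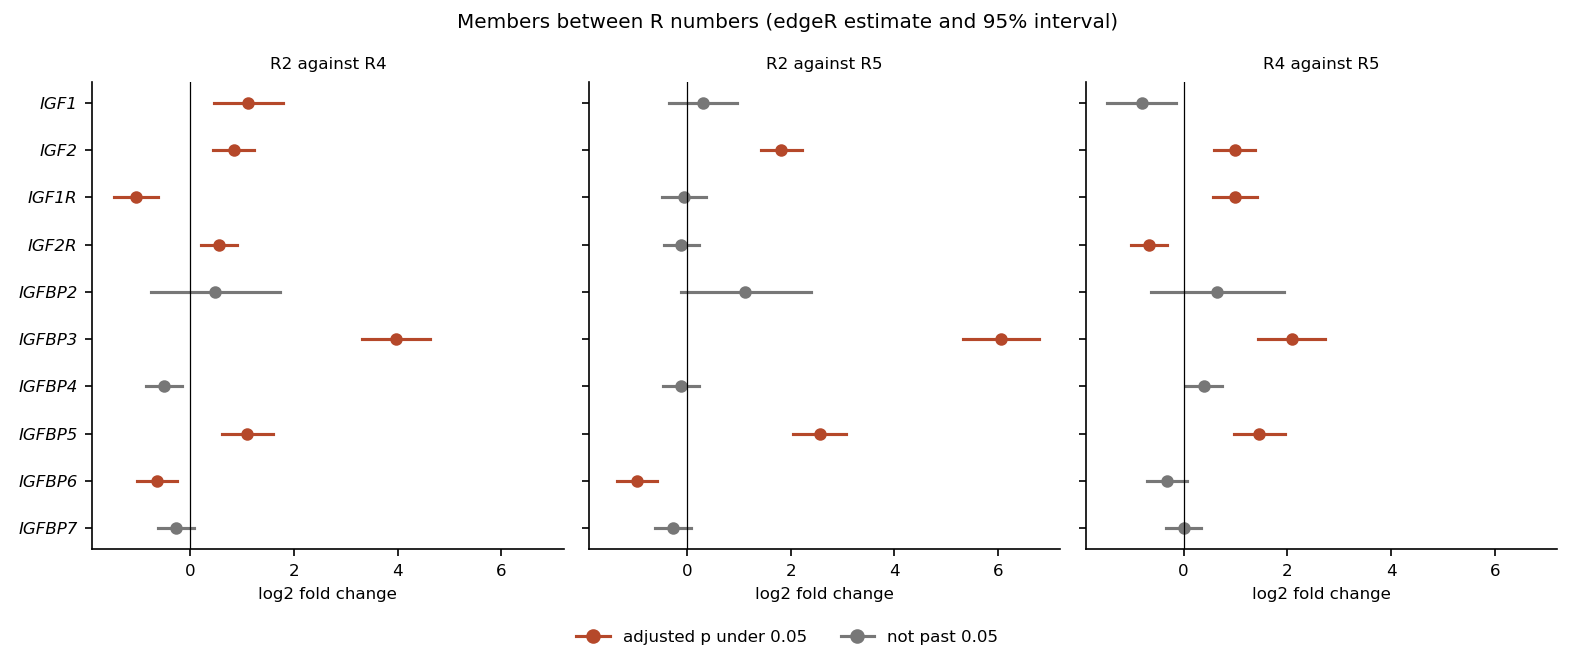
Log2 fold changes of the 10 genes between R numbers, 4 libraries against 4, with edgeR estimates as points and 95% intervals as lines. IGFBP3, IGFBP5 and IGF2 lie above 0 in all 3 panels, and IGF1R and IGF2R depart from 0 in the 2 panels that hold R4.

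Counted by pair, R2 against R4 called 5 members higher and 2 lower, beside 13.6% of all genes called, 4.93% higher and 8.72% lower. R2 against R5 called 3 higher and 1 lower, beside 20.8% of all genes, 9.26% higher and 11.5% lower. R4 against R5 called 4 higher and 1 lower, beside 14.2% of all genes, 8.67% higher and 5.58% lower. Libraries of 2 R numbers did not overlap in 18.5% of all genes for R2 against R4, 31.0% for R2 against R5 and 22.1% for R4 against R5. The comparisons share libraries, so their calls are not separate evidence. IGF2, IGFBP3 and IGFBP5 were called in all 3 pairs. IGF1R and IGF2R were called in both pairs that hold R4. IGFBP6 was called in both pairs that hold R2.

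The remaining binding proteins did not pass the test of R number. IGFBP4, an inhibitor of IGF action and the classic substrate of PAPPA, stood in CL-CM-EE-IVF at 36.2, 46.1 and 35.0 CPM in R2, R4 and R5. It stood at 37.9, 45.5 and 39.5 CPM in CL-CM-EE-AI, at 29.7, 42.4 and 27.6 CPM in CL-CM-EE, and at 21.2, 40.5 and 31.7 CPM in CL-NC. The lowest library was CL-NC R2 and the highest CL-CM-EE-IVF R4, and all groups overlapped. All 4 R4 libraries of IGFBP4 lay above all 8 others, with a log2 fold change of -0.51 for R2 against R4 (-0.85 to -0.17) that missed the threshold at an edgeR adjusted p of 0.0509. IGFBP4 had the lowest p of the 10 genes for CL-CM-EE-AI against CL-NC, with a log2 fold change of 0.39 (95% interval -0.22 to 1.01), and in CL-CM-EE-IVF against CL-NC, with 0.33 (-0.29 to 0.95). It was also first in CL-CM-EE-AI against CL-CM-EE, with 0.30 (-0.32 to 0.92), and 0.17 without CL-CM-EE R5 or 0.51 without CL-CM-EE R4. Within R numbers, the difference in log2 CPM of CL-CM-EE-AI from CL-NC was 0.83 in R2, 0.17 in R4 and 0.32 in R5. For CL-CM-EE-IVF from CL-NC it was 0.77, 0.19 and 0.14 in the same R numbers. IGFBP4 was higher in 3 of 3 R numbers in both, as were 13.4% and 12.7% of all genes tested. Without the CL-NC R2 library the fitted log2 fold changes were 0.20 for CL-CM-EE-AI and 0.13 for CL-CM-EE-IVF, each against CL-NC, and without CL-NC R4 they were 0.63 and 0.57. Without CL-CM-EE-IVF R4 the value for CL-CM-EE-IVF was 0.19.

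IGFBP7, a low-affinity binding protein found in the walls of blood vessels, had the narrowest range of the 10, 1.65-fold over the 12 libraries. It stood in CL-CM-EE-IVF at 193, 226 and 177 CPM in R2, R4 and R5, and at 149, 204 and 208 CPM in CL-CM-EE-AI. The values were 153, 155 and 164 CPM in CL-CM-EE, against 162, 212 and 247 CPM in CL-NC. CL-CM-EE held the tightest set, 157 ± 5.79 CPM, beside 207 ± 42.6 CPM in CL-NC (SD, n = 3 each). The log2 fold change of CL-CM-EE against CL-NC was -0.39 (95% interval -0.96 to 0.17), the lowest p of the 10 genes in that comparison. Within R numbers it was -0.08 in R2, -0.45 in R4 and -0.59 in R5, lower in 3 of 3, as were 10.1% of all genes tested. Every CL-CM-EE-IVF library lay above every CL-CM-EE library, which held for 5.60% of all genes in either direction. It was the only one of the 60 gene and group comparisons without overlap, at a log2 fold change of 0.34 (-0.23 to 0.90) that did not pass the test. Within R numbers that difference was 0.33, 0.55 and 0.11 in R2, R4 and R5.

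IGFBP2, a binding protein common in fetal and follicular fluid, was near the lower end of detection, with 5 to 36 counts a library. It averaged 0.947 ± 0.153, 0.855 ± 0.685 and 1.21 ± 0.371 CPM in CL-CM-EE-IVF, CL-CM-EE-AI and the CL-CM-EE group, against 1.21 ± 0.730 CPM in CL-NC (SD, n = 3 each). Its R2 libraries lay between 1.02 and 1.61 CPM, above all R5 libraries at 0.366 to 0.791 CPM, and its R4 libraries between 0.283 and 1.66 CPM. The log2 fold change of R2 against R5 was 1.13 with an interval of -0.12 to 2.39. That difference did not pass the test for IGFBP2, and the part of the low counts in this was not tested.

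**Figure D3:**
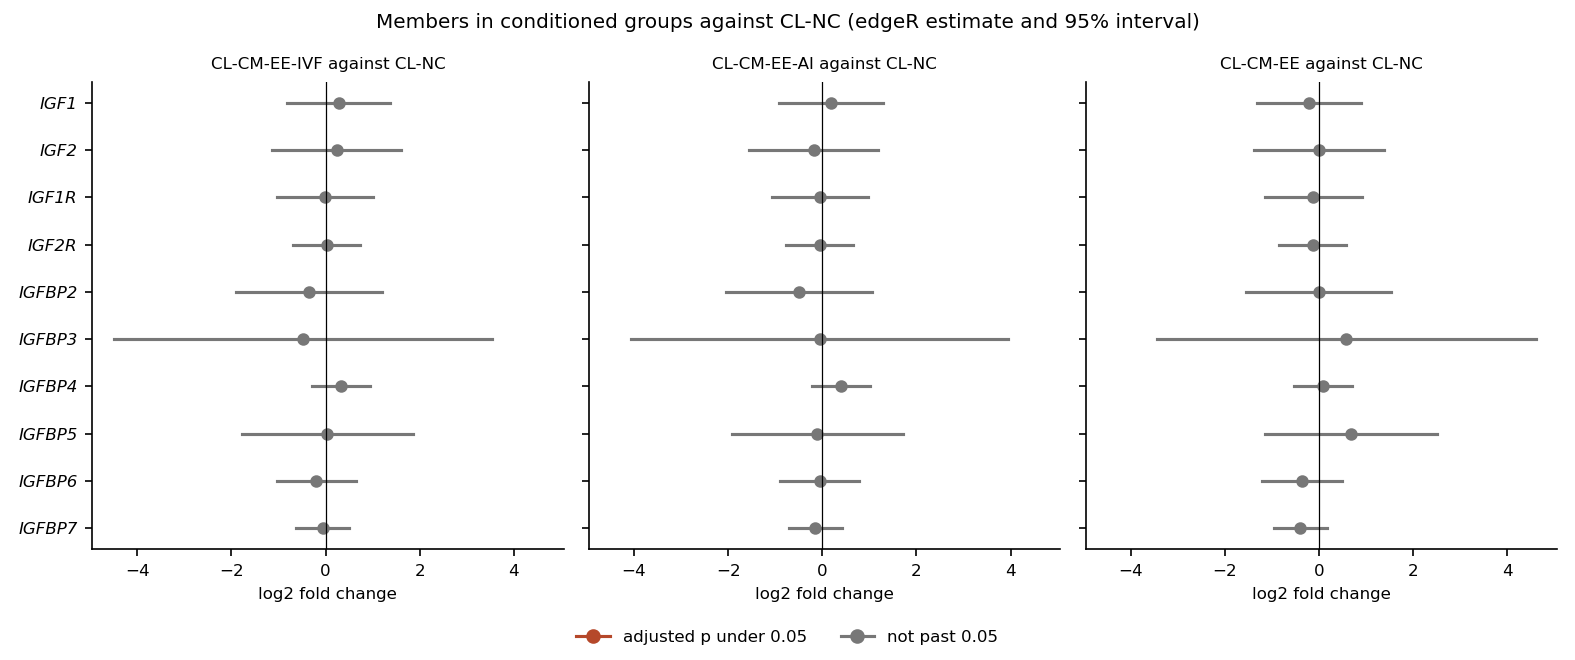
Log2 fold changes of the 10 genes in each conditioned group against CL-NC, 3 libraries against 3, with edgeR estimates as points and 95% intervals as lines. R number was not in the model. All intervals drawn cross 0, from the narrow ones of IGFBP7 and IGFBP4 to the wide ones of IGFBP3.

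Without R number in the model, intervals between culture groups differed more in width than the estimates differed in size. Over the 60 comparisons the estimates ran from -1.05 for IGFBP3, in CL-CM-EE-IVF against CL-CM-EE, to 0.68 for IGFBP5, in CL-CM-EE against CL-NC. The width of the interval ran from 1.13 for IGFBP7 to 8.11 for IGFBP3. The median log2 fold change of the 10 genes against CL-NC was 0.01 in CL-CM-EE-IVF, -0.06 in CL-CM-EE-AI, and also -0.06 in CL-CM-EE, beside -0.04, 0.03 and -0.03 for all genes tested.

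The sum of squares of log2 CPM over the 12 libraries was split between culture group, R number and the remainder. R number held 97.9% for IGFBP3, 92.7% for IGF2, 92.2% for IGFBP5, 83.0% for IGF1R, 82.9% for IGFBP6, 80.2% for IGF2R and 59.8% for IGF1. It held 49.1% for IGFBP4, 37.5% for IGFBP2 and 29.4% for IGFBP7. The median over the 10 genes was 81.5%, beside 40.1% over all genes tested. Culture group held the most for IGFBP7, 38.1%, and for IGFBP4, 32.6%, with a median of 6.29% over the 10 genes and 13.6% over all genes tested. These shares are descriptions, and with 3 degrees of freedom for group and 2 for R number a share above 0 is found for any gene.

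**Figure D4:**
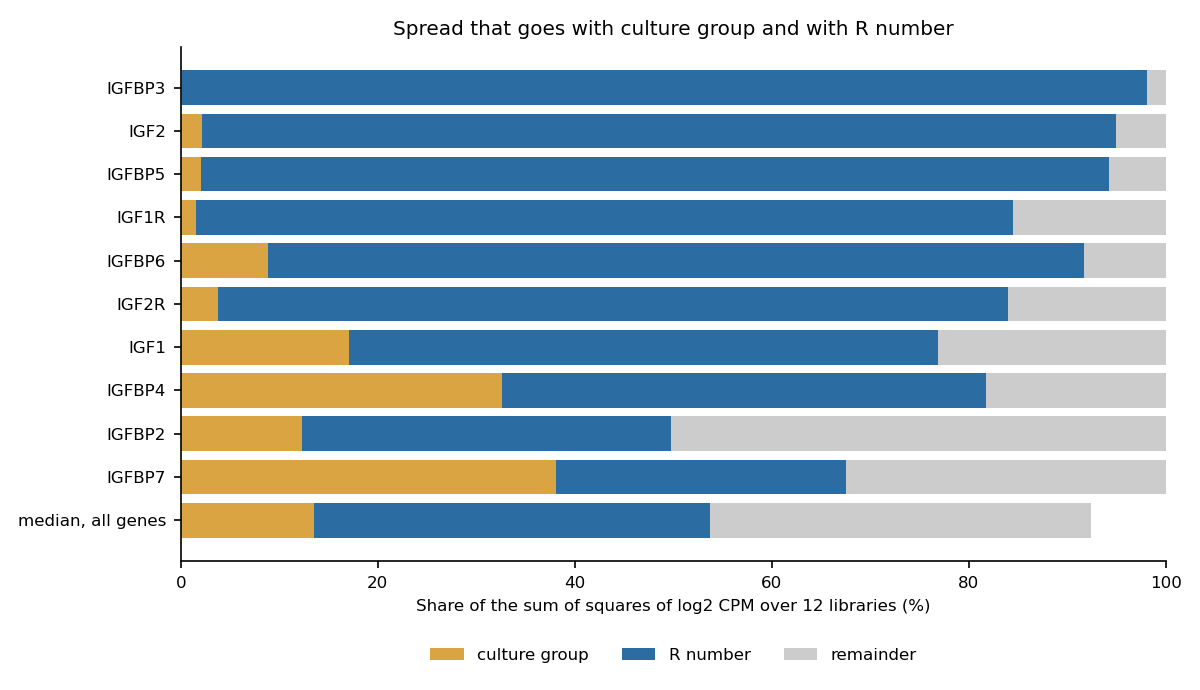
Share of the sum of squares of log2 CPM that went with culture group, R number and the remainder, for each of the 10 genes and as the median of each share over all genes tested, whose 3 medians need not add up to 100%. R number takes from 29.4% for IGFBP7 to 97.9% for IGFBP3, beside a median of 40.1% over all genes.

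Together the 10 genes took a larger share of the counts in R2. Outside mitochondrial and ribosomal RNA, the share lay between 0.238% and 0.260% in the R2 libraries, between 0.149% and 0.193% in R4, and between 0.144% and 0.153% in R5. By culture group the share was 0.199% ± 0.0584 in CL-CM-EE-IVF, 0.180% ± 0.050 in CL-CM-EE-AI, then 0.187% ± 0.0635 in CL-CM-EE, against 0.196% ± 0.0519 in CL-NC (SD, n = 3 each).

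Marker lists of cell types differed in how far they moved with R number. The edgeR test of R number called 8 of 9 steroidogenic, 7 of 10 endothelial and 6 of 10 fibroblast markers. It called 7 of 10 smooth muscle and pericyte, 1 of 8 macrophage, 1 of 8 T cell and 1 of 6 uterine epithelial markers. Over all genes tested the share called was 26.7%. The summed level of 10 endothelial markers lay between 1515 and 1943 CPM in R2. It lay between 891 and 1321 CPM in R4 and between 912 and 1275 CPM in R5. For these markers R2 against R4 called 6 of 10 higher and 2 lower, and R2 against R5 called 5 higher and 1 lower. R4 against R5 called 0 higher and 1 lower. The 10 fibroblast markers summed to between 640 and 1024 CPM in R2, 257 and 1003 CPM in R4, and 340 and 417 CPM in R5. For them R2 against R5 called 5 of 10 higher and 0 lower, and R2 against R4 called 3 higher and 0 lower. R4 against R5 called 1 higher and 0 lower. The 9 steroidogenic markers summed to between 1502 and 2687 CPM in R2, 1731 and 6491 CPM in R4, and 1441 and 2144 CPM in R5. Of these, R4 against R5 called 6 of 9 higher and 1 lower, and R2 against R4 called 1 higher and 4 lower. R2 against R5 called 1 higher and 1 lower. The 10 smooth muscle and pericyte markers lay between 401 and 560 CPM in R2, 442 and 824 CPM in R4, and 321 and 412 CPM in R5. Here R2 against R4 called 0 of 10 higher and 4 lower, and R2 against R5 called 1 higher and 3 lower. R4 against R5 called 3 higher and 0 lower. Of all genes, 13.6% were called for R2 against R4, 20.8% for R2 against R5 and 14.2% for R4 against R5. The 8 of 9 listed macrophage markers in the table summed to between 23.0 and 50.4 CPM, and the 8 T cell markers to between 4.42 and 17.7 CPM, over the 12 libraries. Of the 6 uterine epithelial markers in the table only CDH1, an adhesion protein of many epithelia, was called, at 1.53 CPM in R2, 18.5 CPM in R4 and 1.69 CPM in R5 on average. Of the luteal markers, OXT averaged 129 CPM in R2, 37.5 CPM in R4 and 7.12 CPM in R5. OXT encodes oxytocin and is expressed by large luteal cells of cattle. The rest of the luteal list went otherwise. STAR, CYP11A1, HSD3B1, PTGFR, FDX1, SCARB1 and INHA had their highest mean in R4, and LHCGR in R5. The part of these cell types in the R differences of the IGF genes was not tested. Between culture groups 0 markers of any list were called. The fibroblast sum was 815 ± 344 CPM in CL-CM-EE-IVF, 596 ± 182 CPM in CL-CM-EE-AI, 448 ± 167 CPM in CL-CM-EE, against 437 ± 239 CPM in CL-NC (SD, n = 3 each). The steroidogenic sum was 2774 ± 907 CPM in CL-CM-EE-IVF, 3420 ± 2673 CPM in CL-CM-EE-AI, 2040 ± 986 CPM in CL-CM-EE, against 1729 ± 146 CPM in CL-NC (SD, n = 3 each). Every CL-CM-EE-IVF library lay above every CL-NC library in the steroidogenic sum. The exact permutation test, two-sided, gave p = 0.1 there, its floor with 3 libraries a group, and p = 0.2 for the fibroblast sum. The part of either cell type in the culture group values of the IGF genes was not tested.

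The wider IGF pathway was taken as 58 listed genes, of which 53 were tested. Between culture groups 0 of 53 were called in any of the 6 comparisons. For R number 27 of 53 were called, beside 26.7% of all genes tested. By role these were IGFBP1, the 1 carrier of this list tested, 2 of 5 proteases (PAPPA and ADAMTS1), 1 of 2 protease inhibitors (STC1) and 1 of 3 receptors. PAPPA2, HTRA1, HTRA3 and STC2 were tested and not called. Also called were 5 of 8 adaptors, 4 of 11 genes of the PI3K and AKT branch and 6 of 8 of the mTOR branch. The rest were 4 of 5 of the FOXO and GSK3 group, 2 of 4 genes tied to IGF2 mRNA and its locus, and 1 of 6 of the MAPK branch.

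Outside the cell, STC1, a glycoprotein that inhibits PAPPA, had the lowest p of the list. It stood in R2 at 176, 215, 356 and 220.1 CPM in CL-CM-EE-IVF, CL-CM-EE-AI, CL-CM-EE and CL-NC, in R4 at 38.6, 69.2, 63.4 and 41.4 CPM, and in R5 at 29.5, 29.3, 25.9 and 32.1 CPM. All R2 libraries lay above all others, and STC1 was higher in R2 than in R5 by 2.99 on the log2 scale (95% interval 2.49 to 3.49, edgeR adjusted p = 1.07e-05). PAPPA, the protease that cuts IGFBP4 and IGFBP5, was instead high in R4, at 52.8, 88.9, 76.6 and 39.9 CPM in CL-CM-EE-IVF, CL-CM-EE-AI, CL-CM-EE and CL-NC. It stood between 14.8 and 20.3 CPM in R2 and between 11.7 and 20.2 CPM in R5. PAPPA was higher in R4 than in R5 by 1.94 on the log2 scale (1.45 to 2.42, edgeR adjusted p = 3.24e-04). ADAMTS1, a matrix protease, averaged 228 CPM in R2, 289 CPM in R4 and 106 CPM in R5. IGFBP1, a short-lived carrier best known from liver and decidua, had few counts and averaged 2.60 ± 0.530 CPM in R2, 0.571 ± 0.510 CPM in R4 and 0.434 ± 0.315 CPM in R5 (SD, n = 4 each).

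At the membrane and inside the cell, IRS1, the docking protein that IGF1R phosphorylates, was high where IGF1R was. It stood in R4 at 47.0, 57.6, 65.4 and 59.8 CPM in CL-CM-EE-IVF, CL-CM-EE-AI, CL-CM-EE and CL-NC, against 20.0 to 34.0 CPM in R2 and 23.8 to 30.4 CPM in R5. IRS1 was higher in R4 than in R5 by 1.05 on the log2 scale (95% interval 0.65 to 1.46, edgeR adjusted p = 0.00349). PIK3CB, a catalytic subunit of PI3K, averaged 47.2 ± 7.54 CPM in R4, 23.4 ± 0.546 CPM in R2 and 23.8 ± 1.5 CPM in R5 (SD, n = 4 each). GRB10 and GRB14, adaptors that damp insulin and IGF receptors, differed in R2, where GRB10 had its highest mean and GRB14 its lowest. GRB10 averaged 738 CPM in R2, 281 CPM in R4 and 330.2 CPM in R5, and GRB14 averaged 16.6, 29.6 and 52.3 CPM in that order of R numbers. EIF4EBP1, the translation repressor that mTOR inactivates, averaged 39.1 CPM in R2, 15.5 CPM in R4 and 9.71 CPM in R5. RHEB, the GTPase that switches mTOR complex 1 on, averaged 42.5, 51.5 and 20.5 CPM in that order.

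**Figure D5:**
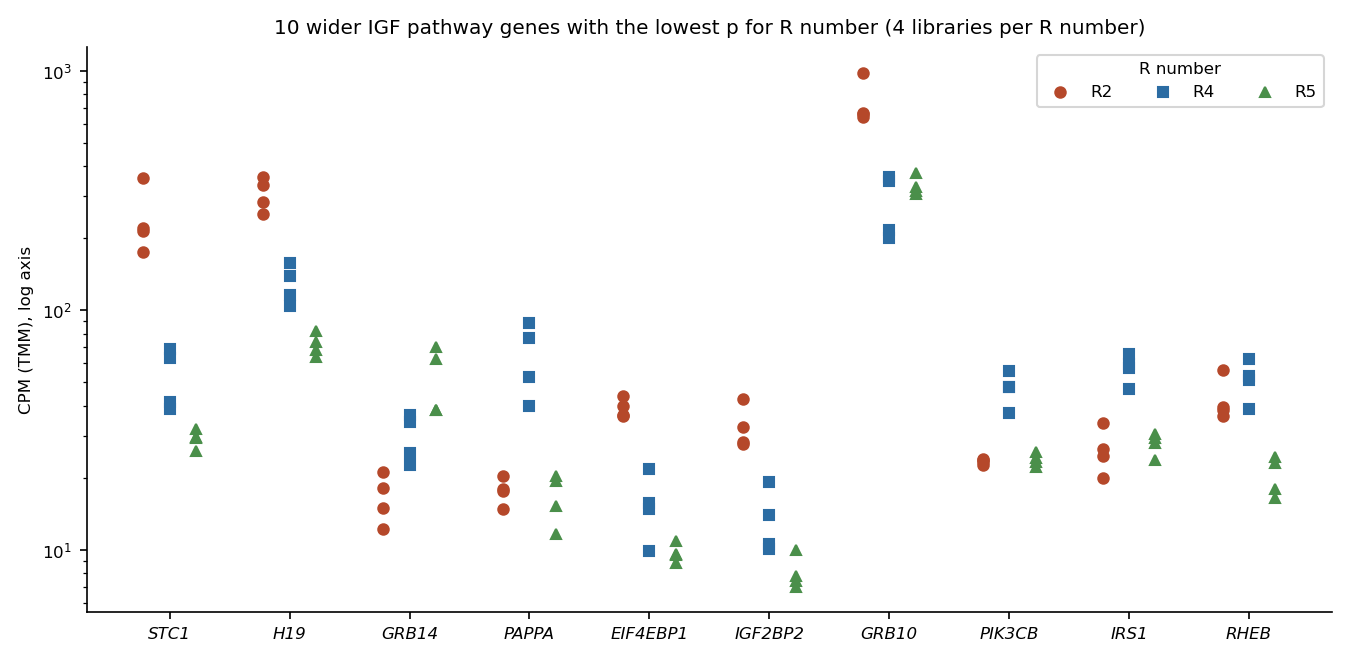
CPM, on a log axis, of the 10 wider pathway genes with the lowest p for R number, with 4 libraries of each R number as points. STC1, H19, EIF4EBP1, IGF2BP2 and GRB10 are highest in R2, PAPPA, PIK3CB and IRS1 in R4, and GRB14 in R5.

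H19, an imprinted RNA without a protein product, lies on the same chromosome as IGF2 in the RefSeq genes of assembly ARS-UCD2.0, with 0 protein-coding genes between them. H19 stood in R2 at 362, 282, 335 and 253 CPM in CL-CM-EE-IVF, CL-CM-EE-AI, CL-CM-EE and CL-NC, in R4 at 158, 139, 116 and 104 CPM, and in R5 at 68.5, 82.2, 63.8 and 73.6 CPM. The 3 sets did not overlap and had the order of IGF2. H19 was higher in R2 than in R5 by 2.08 on the log2 scale (95% interval 1.71 to 2.46, edgeR adjusted p = 1.46e-05), beside 1.82 for IGF2. IGF2BP2, a protein that binds IGF2 mRNA, averaged 32.8 ± 7.06 CPM in R2, 13.5 ± 4.24 CPM in R4 and 8.03 ± 1.33 CPM in R5 (SD, n = 4 each). In the same assembly IGFBP3 is next to IGFBP1 and IGFBP2 next to IGFBP5, with 0 genes between the members of each pair. Both genes of each pair had their highest mean in R2, although the call for IGFBP2 was not made.

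Between culture groups the wider pathway genes with the lowest p had intervals that included 0. GHR, the growth hormone receptor that drives IGF1 expression in liver, was 0.48 higher on the log2 scale in CL-CM-EE-IVF than in CL-NC (95% interval -0.18 to 1.14) and 0.46 higher in CL-CM-EE-AI (-0.20 to 1.12). With the CL-NC R2 library left out GHR had 0.32 and 0.29 in these comparisons, with CL-NC R4 left out 0.77 and 0.75, and in the second 0.27 with CL-CM-EE-AI R4 left out. PIK3R3, a regulatory subunit of PI3K, was -0.47 (-1.08 to 0.15) and -0.42 (-1.03 to 0.19) in the same comparisons, and -0.67 in the second without CL-CM-EE-AI R5. Without CL-NC R4 the PIK3R3 values were -0.36 and -0.31, and without CL-NC R2 the first was -0.65. AKT2 and TSC2 had 0.27 (-0.31 to 0.85) and 0.39 (-0.60 to 1.37) in CL-CM-EE against CL-NC. With the CL-NC R2 library left out they had 0.088 and 0.064. AKT2 had 0.092 without CL-CM-EE R2, and TSC2 had 0.078 without CL-CM-EE R5 and 0.65 without CL-NC R5. HTRA1, a protease, and SOS2, a Ras activator, had 0.46 (-0.18 to 1.10) and 0.35 (-0.15 to 0.85) in CL-CM-EE-AI against CL-CM-EE, and HTRA1 had 0.12 without CL-CM-EE-AI R4. PDPK1, the kinase that activates AKT, was -0.35 (-0.88 to 0.18) in CL-CM-EE-IVF against CL-CM-EE, at 22.8 ± 0.292 CPM and 29.2 ± 2.29 CPM (SD, n = 3 each). Every CL-CM-EE-IVF library of PDPK1 lay below every CL-CM-EE library, and 5.60% of all genes did not overlap there in either direction. MTOR, also on the list, did not overlap there either, at 37.3 to 41.8 CPM against 26.2 to 36.4 CPM. SOS2 did not overlap in CL-CM-EE-AI against CL-CM-EE, at 32.5 to 40.2 CPM against 25.6 to 31.6 CPM. Genes of the list without overlap were not counted. IGF2BP3 was -1.12 (-2.58 to 0.34) in CL-CM-EE-IVF against CL-CM-EE. It was -0.73 (-2.19 to 0.72) in CL-CM-EE-IVF against CL-CM-EE-AI, where MAPK3 had -0.29 (-0.90 to 0.32). Without CL-CM-EE-IVF R5 the IGF2BP3 values were -2.11 and -1.72, and without CL-CM-EE-IVF R2 they were -0.63 and -0.25. MAPK3 had -0.11 without CL-CM-EE-AI R5 and -0.19 without CL-CM-EE-IVF R4.

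The likeness of other genes to each member was measured as Pearson's r of log2 CPM over the 12 libraries, among 14014 genes with a symbol and a mean of at least 1 CPM. The libraries share R numbers, so a second r was taken after each R number's mean had been removed, and both are descriptions. IGF1R was most like IRS1, its own substrate, with r of 0.970 and 0.808 within R numbers, followed by FBN1 and AAK1. IGFBP4 was most like PYCR3, MRPS16 and GHR, with 0.899 and 0.800 within R numbers for GHR. IGFBP3 was most like GOLM1, ACKR3, a chemokine receptor, and LOC784938, with r of 0.990, 0.989 and 0.988, and between 0.616 and 0.650 within R numbers. IGFBP5 was most like RBPJ, the DNA-binding factor of Notch signalling, FOXJ3 and CD9, with r of 0.980, 0.977 and 0.9751, and between 0.708 and 0.745 within R numbers.

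IGF2 was most like FLNC, APLN and MCAM, with r of 0.959, 0.952 and 0.948. APLN encodes the vascular peptide apelin and MCAM an adhesion molecule of endothelium and pericytes, and within R numbers their r with IGF2 was 0.212 and 0.468, against 0.777 for FLNC. IGF1 was most like COL11A1, SEL1L3 and GATM (0.913, 0.911 and 0.910). IGF2R was most like RASSF2, TTC7B and LOC619000 (0.949, 0.942 and 0.928), and IGFBP6 like MTMR1, ZBTB16 and RPUSD3 (0.951, 0.950 and 0.942). IGFBP2 was most like STAC, RTL1 and HS3ST3A1 (0.927, 0.922 and 0.914), and IGFBP7 like LOC101903645, POLR3A and MED23 (0.907, 0.834 and 0.831). Among the members themselves, IGF2 and IGFBP3 had r of 0.923 over the libraries and -0.165 within R numbers, and IGF2 and IGFBP5 had 0.925 and 0.016. IGFBP3 and IGFBP5 had 0.941 and 0.642, and IGFBP6 and IGFBP7 had 0.712 and 0.718.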

How the data were processed

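Gene expression was measured by RNA sequencing of bovine corpus luteum. The authors deposited whole read counts per gene, with no fractional expected counts among the deposited values. The submitters' processing notes list STAR, featureCounts, DESeq2, cutadapt and Trim Galore, and the sources used here give no version, genome build or annotation. R4 and R5 have 2 sample titles per group for each single column, and how these were joined is not stated. No gene summed to under 36 counts. The endometrial table was not used here.

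Genes were kept with filterByExpr, scaled by TMM and fitted with edgeR quasi-likelihood over 12 libraries. P-values were adjusted by Benjamini-Hochberg over 18939 genes, at a threshold of 0.05. The biological coefficient of variation was 0.519. The fit was tested on simulated counts. Log2 CPM used a prior count of 2. The members, lists and comparisons were chosen with earlier results of these data known. All members are named, with the 2 wider pathway genes of lowest p per comparison and the 3 most alike genes per member; pathway genes described for R number and OXT and CDH1 were chosen after their values were seen. Symbols matched for 17386 genes of the table. The software was Python 3.11.15 with matplotlib 3.10.9 and numpy 2.4.6, and R 4.3.3 with DESeq2 1.42.0, limma 3.58.1 and edgeR 4.0.16.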

Additional observations from a re-analysis of the deposited data

How the results depend on the processing

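Fold changes were followed through the settings for members called between R numbers. Between culture groups this was done for the member and the 2 wider pathway genes of lowest p per comparison. The other group fold changes were not followed in this way. With R number in the model, for example, IGFBP3 in CL-CM-EE-IVF against CL-NC had 0.07, beside -0.48 without it. Among the values followed, 0 R number fold changes and 2 culture group fold changes turned sign, neither of them called. AKT2 in CL-CM-EE against CL-NC was -0.046 on the log2 scale without the R2 libraries. IGF2 in CL-CM-EE-IVF against CL-CM-EE-AI ran from -0.11 to 1.10 over the fits that leave out 1 library. The causes were not tested. DESeq2 called 1 gene, MYO15B, no member of the IGF list, in the test over all 4 groups, and 0 in each pair of groups. Genes called for R number were between 3374 and 5141 without any 1 library, with 6 or 7 members called. Without the R2 libraries, chosen after seeing the data, only R4 against R5 was left, so the test of R number was not repeated there. That fit, which also removes libraries, called 2904 genes and 5 members. R4 against R5 with all 12 libraries called 2698 genes and 5 members. IGF1 and IGFBP6 were called in neither. Their edgeR adjusted p was 0.124 and 0.340 without the R2 libraries, and 0.0987 and 0.263 with them. RLE scaling moved the median log2 fold change of all genes in R2 against R5 by 0.11, and the share of called genes that were higher to 55.6% from 44.6%, and in R2 against R4 to 46.3% from 36.1%. With mitochondrial and ribosomal RNA removed, R2 against R4 called 3 members lower, against 2 in the fit reported.

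Alternatives run were RLE scaling, no filter on low counts, DESeq2, removal of mitochondrial and ribosomal RNA, each library left out, no R2 libraries and a replicate block. The replicate block, R number as a term, left 0 genes and 0 members called in each of the 6 comparisons and over all 4 groups. At an unadjusted p under 0.05 it gave between 163 and 976 genes a comparison. The lowest p of a member under the block was that of IGFBP4, CL-CM-EE-AI against CL-NC, at an edgeR adjusted p of 0.988, and its log2 interval of 0.034 to 0.82 under the block lay above 0. For IGFBP3 in CL-CM-EE against CL-NC the block gave 0.26 (-0.45 to 0.96), an interval 1.41 wide beside 8.05 without it. Libraries with the same R number deviated from their group means together, with correlations between 0.0813 and 0.662 over 18 pairs, and each of the 12 libraries correlated best with its own number, a hint from the data and not the design. Depth limits IGFBP2 most, with 5 to 36 counts a library. The fit of the endometrial table was not run.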
